A study of Danio rerio with 28 samples.

Results

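Metallothionein, zinc and iron transport genes were followed in whole zebrafish larvae exposed to cadmium or to the polychlorinated biphenyl PCB126. The members were 30 of the 38318 genes counted. They were taken by name: the metallothionein mt2, the metal-sensing transcription factor gene mtf1, every gene whose symbol begins with slc30a (zinc exporters, the ZnT family) or slc39a (zinc importers, the ZIP family), and the iron genes slc11a2, slc40a1, slc25a37, tfa, tfr1a, tfr1b and hamp. The rule uses names and no measured value, although earlier results of these data were known when it was set.

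The larvae were wild-type fish of the AB strain kept in E3 medium at 28.5 °C. Cadmium was given at 2.4, 12 or 24 ug/L and PCB126 at 0.08, 0.4 or 0.8 nM, from 1 to 5 days post fertilization, and poly(A) RNA of whole larvae was sequenced at 5 days. Each of the 6 exposed groups and the single control group had 4 libraries, 28 in all, and the labels name no vehicle for the control. Nothing in them ties a library to its own clutch or dish, so the p-values measure only the spread between these libraries, which may be technical. The number of larvae behind a library is not given in the sources used here.

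Metallothioneins are small cysteine-rich proteins that bind zinc, copper and cadmium in the cytosol. In vertebrates the zinc-sensing factor MTF1 switches on metallothionein and ZnT1 genes when free zinc rises, and cadmium is a classical trigger of the same response, because it displaces zinc from its binding sites. ZnT proteins carry zinc out of the cytosol and ZIP proteins carry it in. Several ZIP proteins and the iron importer DMT1 can also carry cadmium. Iron travels in plasma on transferrin, enters cells through the transferrin receptor and DMT1, and leaves them through ferroportin, which the liver hormone hepcidin removes from the cell surface.

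The libraries held between 11893345 and 20770004 counts assigned to genes, with a median of 14251921. All 30 members passed the filter on low counts. A pair of libraries diverged from the other 26. In control replicate 4 and in replicate 3 of Cd 2.4 ug/L the TMM scaling factors were 0.646 and 0.687, against 0.993 to 1.08 elsewhere, and ribosomal protein genes took 12.0% and 12.4% of their counts, against 5.62% to 6.57%. On the CPM scale, on which counts are divided by the library's total and its TMM factor, 8 members were higher and 7 were lower in both of these libraries than in every other library. The share of all genes that lay apart in this way is not given here, so these counts do not show the members as more affected than other genes. The transferrin receptor gene tfr1a, for example, had 0.913 CPM in control replicate 4 and 1.02 CPM in Cd 2.4 ug/L replicate 3, against 5.28 to 20.6 CPM elsewhere. Counts of called or separated members are therefore given with all 28 libraries and also without this pair, a choice made after seeing the data, and values of single genes without it where stated.

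Levels of different genes were compared per length, as TPM, which divides counts by gene length and by the library's sum. Transferrin, tfa, dominated the set with a mean of 896 TPM over the 28 libraries, which was 64.8% of the members' summed TPM. The iron importer gene slc11a2 (DMT1) followed at 69.1 TPM and the iron exporter gene slc40a1 (ferroportin) at 63.0 TPM. Among zinc transporters the highest levels were those of slc39a7, a ZIP protein of the endoplasmic reticulum, at 57.0 TPM, and slc30a1a, a ZnT1 gene of the plasma membrane, at 33.7 TPM. Next came slc39a9, slc30a4, slc39a6 and slc30a5, between 25.3 and 32.1 TPM, whose library ranges overlapped one another. The other ZnT1 gene, slc30a1b, averaged 1.42 TPM and mtf1 averaged 1.14 TPM. The mitochondrial iron importer gene slc25a37 (mitoferrin 1) was lowest, at 0.393 TPM.

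**Figure D1:**
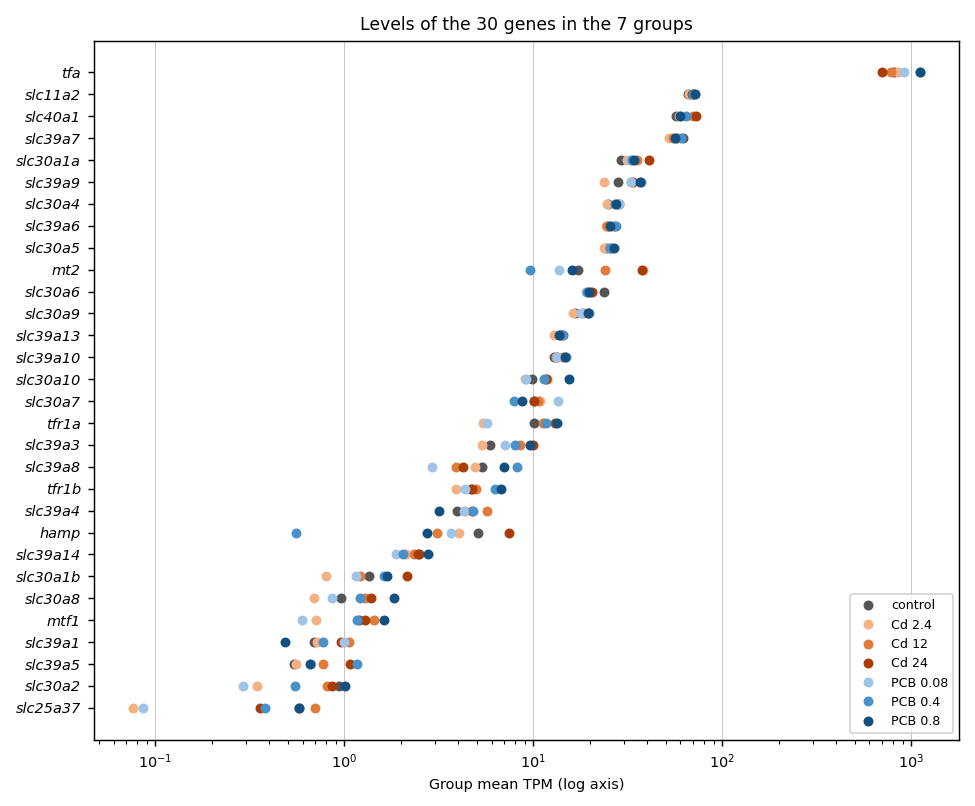
Group mean TPM (log axis) of each of the 30 genes, ordered by the mean over all 28 libraries, with 1 point for each of the 7 groups (4 libraries each). tfa stands far to the right, with a mean of 896 TPM over all libraries, and the points of hamp, mt2, mtf1 and slc25a37 spread more widely than those of slc11a2 or slc39a7.

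The genes differed in how much they varied between libraries. The TPM of slc39a7 spanned 50.1 to 65.2 and that of slc11a2 spanned 56.5 to 76.3. In contrast mt2, with a mean of 22.3 TPM, spanned 7.01 to 68.1 TPM, a ratio of 9.7. A total under 1000 counts over the 28 libraries was reached by 7 members: hamp (520), slc30a1b (510), slc30a8 (886), slc39a1 (301), slc39a5 (337), slc30a2 (211) and slc25a37 (208). Reads of slc25a37 were absent from 3 libraries and those of slc39a1 from 1, so changes in these genes were not detectable at this depth unless large.

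The comparisons addressed which genes cadmium or PCB126 changed at each dose. mt2 (ENSDARG00000041623; GRCz11, chromosome 18, 17534627 to 17535979, plus strand) is the metallothionein measured here, since mtbl, the other gene of that family in the table, had 0 counts in every library. Control larvae had 2.50, 4.10, 7.18 and 8.85 CPM. Larvae at Cd 2.4 ug/L had 10.6, 4.86, 18.9 and 16.7 CPM, those at Cd 12 ug/L had 6.99, 4.75, 7.29 and 6.70 CPM, and those at Cd 24 ug/L had 6.62, 18.6, 6.45 and 9.04 CPM. Every cadmium group therefore overlapped the control, the highest values lay at the lowest and the highest dose, and the middle dose was close to the control. In whole larvae, here and in every comparison below, fewer cells of a type and less RNA per cell cannot be told apart.

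The mean of mt2 was 12.8 ± 6.34 CPM at Cd 2.4 ug/L and 5.66 ± 2.88 CPM in control larvae (SD, n = 4 each), a log2 fold change of 1.18 ± 0.39 (SE) that did not pass the threshold in edgeR's quasi-likelihood test (Benjamini-Hochberg adjusted p = 0.711). Its 95% interval was 0.37 to 1.99 and the unadjusted p of that test was 0.00562. Without the divergent pair the log2 fold change was 1.22 ± 0.41 (adjusted p = 0.249). At Cd 12 ug/L the log2 fold change was 0.19 ± 0.39 (adjusted p = 0.856), and it was -0.058 without control replicate 1 and 0.48 without the divergent pair. At Cd 24 ug/L it was 0.86 ± 0.39 (95% interval 0.05 to 1.67, adjusted p = 0.359), and leaving out single libraries moved it between 0.39 and 1.14. In PCB126 larvae mt2 had 2.95 to 4.31 CPM at 0.08 nM, 1.88 to 3.22 CPM at 0.4 nM and 2.96 to 6.22 CPM at 0.8 nM. The 0.4 nM group averaged 2.57 CPM against 5.66 CPM in control larvae, a log2 fold change of -1.12 ± 0.41 (adjusted p = 0.274). All 4 libraries at Cd 24 ug/L lay above all 4 at PCB126 0.8 nM, with a log2 difference of 1.26 ± 0.39 (adjusted p = 0.143, and 0.0324 without the divergent pair). That pair is in neither group, but the model estimates the spread of a gene from all 28 libraries.

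**Figure D2:**
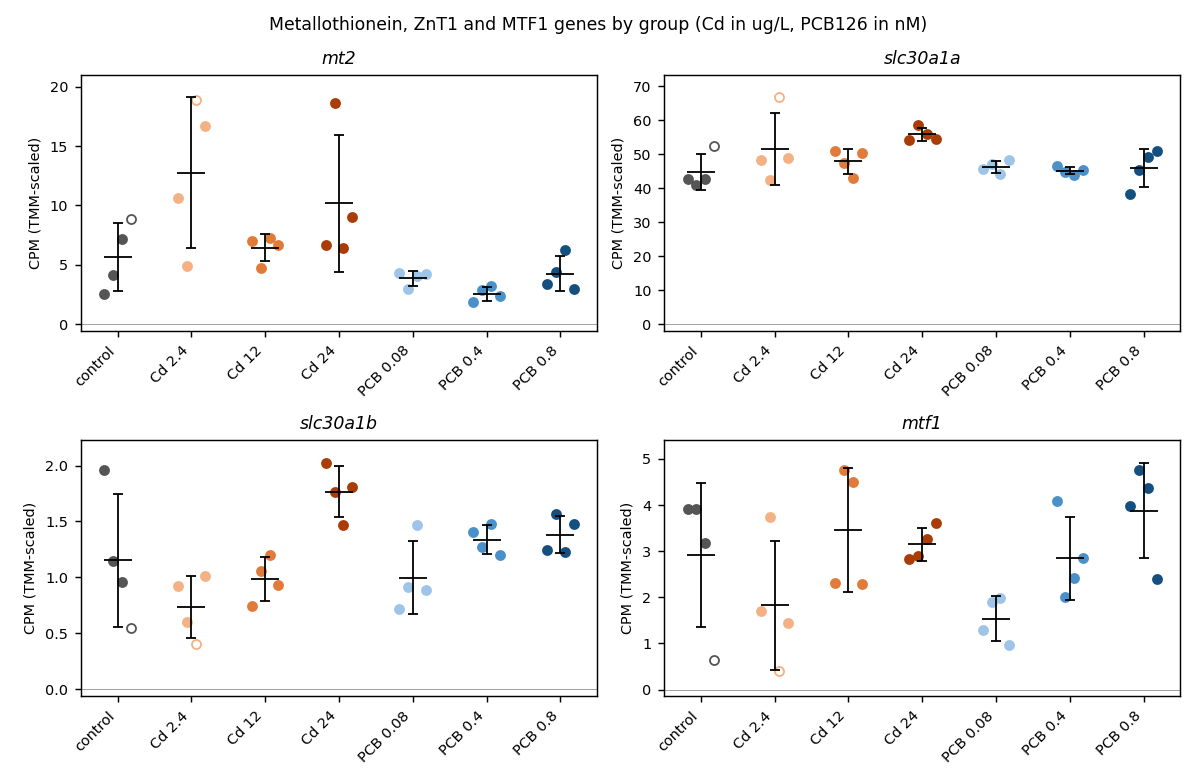
TMM-scaled CPM of mt2, slc30a1a, slc30a1b and mtf1 in each of the 28 libraries (points, 4 per group), with the group mean and SD as black bars; open points are the divergent pair. For slc30a1a the 4 libraries at Cd 24 ug/L lie between 54.3 and 58.6 CPM, above every control library, while the mt2 points of each cadmium group overlap the control.

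slc30a1a (ENSDARG00000005463; chromosome 20, 13894123 to 13913790, plus strand) encodes a ZnT1 exporter, which moves zinc out of the cell. Larvae at Cd 24 ug/L had 54.3, 58.6, 56.0 and 54.5 CPM, and control larvae had 42.8, 41.0, 42.7 and 52.5 CPM. The groups did not overlap, and the highest control value was that of the divergent replicate 4. The log2 fold change was 0.32 ± 0.11, or 1.25-fold, and did not pass the threshold (adjusted p = 0.200). It was 0.41 ± 0.07, or 1.33-fold, without the divergent pair, and slc30a1a then rose (adjusted p = 0.00136).

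The lower cadmium doses gave smaller differences in slc30a1a. Its values were 48.4, 42.4, 66.7 and 48.8 CPM at Cd 2.4 ug/L and 50.9, 47.3, 42.9 and 50.2 CPM at Cd 12 ug/L, with log2 fold changes of 0.20 ± 0.11 (adjusted p = 0.936) and 0.10 ± 0.11 (adjusted p = 0.769). Both groups overlapped the control, the Cd 12 ug/L group only through the divergent replicate 4, since its lowest value lay above the 42.8 CPM of control replicate 1. The log2 fold change at Cd 12 ug/L was 0.18 without the divergent pair. That at Cd 2.4 ug/L was 0.29 without control replicate 4, 0.058 without its own replicate 3 and 0.14 without both. A linear trend over the control and the 3 cadmium doses did not pass with all 16 libraries (adjusted p = 0.436) and passed without the divergent pair (0.0148 ± 0.0026 log2 units per ug/L, adjusted p = 0.00294). In PCB126 larvae slc30a1a had 44.2 to 48.3 CPM at 0.08 nM, 43.9 to 46.4 CPM at 0.4 nM and 38.3 to 50.9 CPM at 0.8 nM. The 2 lower doses, like Cd 12 and 24 ug/L, lay above control replicates 1 to 3 without overlap, with log2 fold changes of 0.14 and 0.10 without the divergent pair (adjusted p = 0.277 and 0.520). The 3' end of the neighbouring gene nek2 overlaps slc30a1a on the same strand over 794 bases, and nek2 had 1843 counts in all against 20159 for slc30a1a.

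slc30a1b (ENSDARG00000053896; chromosome 17, 37215820 to 37221044, plus strand) is the other ZnT1 gene and was counted about as often as hamp. It had 2.03, 1.77, 1.47 and 1.81 CPM at Cd 24 ug/L, against 0.921, 0.598, 0.409 and 1.01 CPM at Cd 2.4 ug/L. The groups did not overlap. The log2 difference was 1.23 ± 0.31 (adjusted p = 0.0608 with edgeR, 0.0181 with DESeq2 and 0.0336 with edgeR without the divergent pair). Control larvae had 1.96, 1.15, 0.957 and 0.548 CPM, overlapping both doses, and the log2 fold change at Cd 24 ug/L against control was 0.59 ± 0.29 (adjusted p = 0.399). It was 0.96 without control replicate 1, 0.38 without control replicate 4 and also 0.38 without the divergent pair.

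mtf1 (ENSDARG00000102898; chromosome 16, 4132537 to 4168888, plus strand), the gene of the zinc sensor itself, had 2.84, 2.90, 3.26 and 3.62 CPM at Cd 24 ug/L, against 3.92, 3.92, 3.17 and 0.639 CPM in control larvae. The log2 fold change was 0.09 ± 0.44 (adjusted p = 0.953), and -0.22 without the divergent pair, so even its direction rests on control replicate 4. Larvae at PCB126 0.08 nM had 1.29, 1.90, 1.98 and 0.960 CPM, below each control library except replicate 4. That log2 fold change was -0.95 ± 0.46 (adjusted p = 0.558), and without the divergent pair mtf1 fell (-1.25 ± 0.34, adjusted p = 0.0233). Low values were also seen at Cd 2.4 ug/L, with 1.71, 3.74, 0.409 and 1.44 CPM, the 0.409 in the divergent replicate 3. There the log2 fold change was -0.67 ± 0.45 (adjusted p = 0.994), and -0.68 ± 0.35 without the divergent pair (adjusted p = 0.438).

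Against control larvae, the edgeR test called no member at Cd 2.4, 12 or 24 ug/L, while it called 0.0394%, 0.173% and 0.922% of the 25393 genes tested. At an unadjusted p below 0.05 there were 2, 4 and 6 members at these doses, which is 6.67%, 13.3% and 20.0% of the 30, against 5.43%, 9.30% and 12.8% of all genes. DESeq2 called 0 at each of the 3 doses. Without the divergent pair edgeR called 0 members at the 2 lower doses, against 0.133% and 0.797% of all genes. The members' median log2 fold change was -0.083, -0.0034 and 0.0019, against -0.013, -0.0033 and -0.019 over all genes. Without that pair, 2 members were called at Cd 24 ug/L, slc30a1a higher and tfa lower, against 5.08% of all genes.

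**Figure D3:**
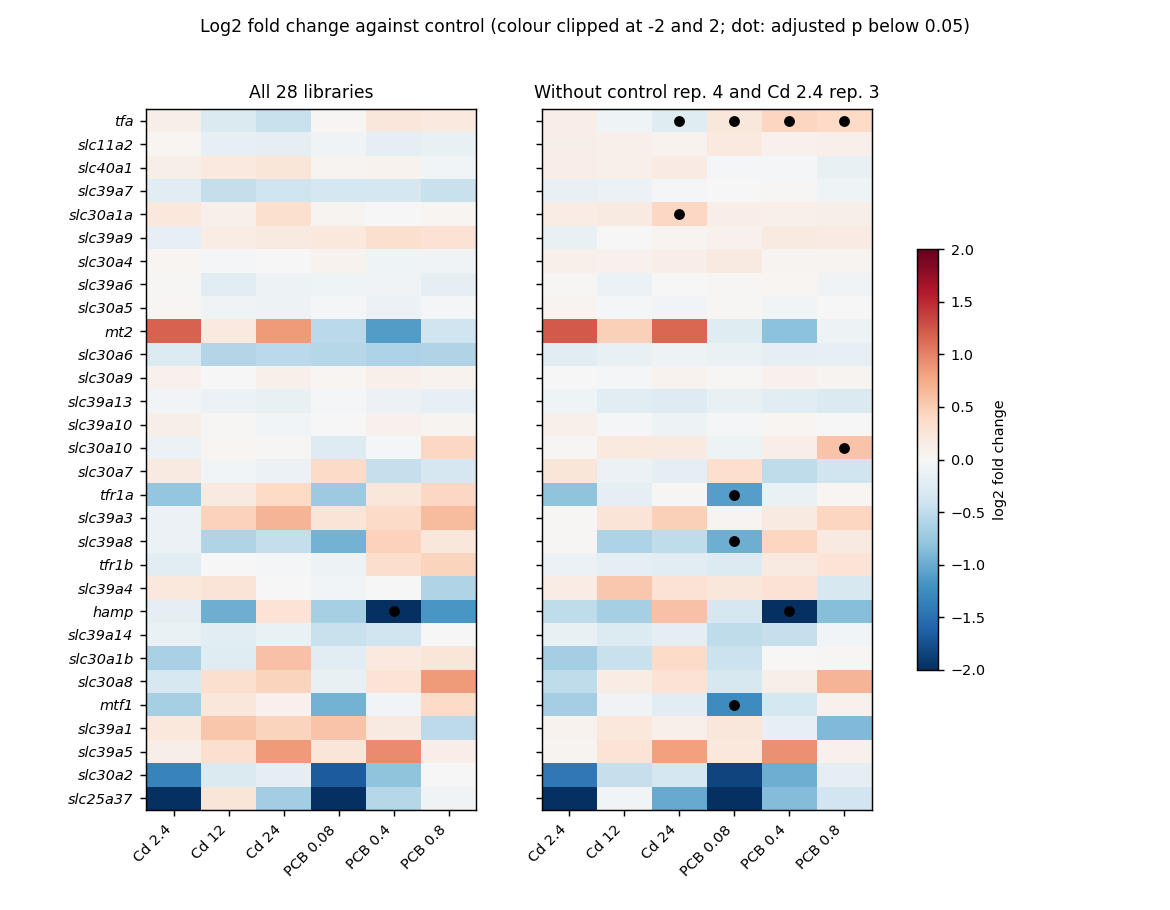
Log2 fold change against control of the 30 genes (rows, in order of TPM) at the 3 doses of each compound (columns), fitted with all 28 libraries (left) and without control replicate 4 and Cd 2.4 ug/L replicate 3 (right). A dot marks an adjusted p below 0.05 in edgeR's test: hamp at PCB126 0.4 nM on the left, and slc30a1a and tfa among those on the right.

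Values of 4 members at Cd 24 ug/L did not overlap those of control larvae. They were slc30a1a and slc40a1, which were higher, and slc39a8 and tfa, which were lower. Of all genes, 4.38% were higher and 3.44% lower without overlap. At Cd 2.4 and 12 ug/L no member was separated from the control in this way, against 1.2% and 2.64% of all genes higher and 0.524% and 1.78% lower. Separation is easier with fewer libraries per group, and those zeros did not hold without the divergent pair. Without it, 4 members at Cd 2.4 ug/L were lower without overlap (slc25a37, slc30a6, slc39a7 and tfr1a) and none higher, against 8.92% and 9.75% of all genes. At Cd 12 ug/L slc30a1a was then higher and slc39a13 lower, against 5.7% and 4.08%, and at Cd 24 ug/L slc39a13 joined the lower ones, making 2 higher and 3 lower, against 9.85% and 8.4%. slc39a8, the ZIP8 importer gene, had 2.19 to 3.13 CPM at Cd 24 ug/L and 3.27 to 4.61 CPM in control larvae, a log2 fold change of -0.48 ± 0.23 (adjusted p = 0.388). slc40a1 had 123, 135, 122 and 118 CPM at Cd 24 ug/L, against 110, 116, 109 and 83.6 CPM in control larvae, a log2 fold change of 0.25 ± 0.10 (adjusted p = 0.300). The lowest control value was that of the divergent replicate 4, and the log2 fold change was 0.15 without that library and 0.16 without the pair.

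tfa (ENSDARG00000016771; chromosome 2, 16780643 to 16794710, plus strand) encodes the plasma iron carrier transferrin and is singled out here, like slc40a1, slc11a2, the transferrin receptor genes, slc30a6, slc30a7, slc30a8, slc30a10, slc39a1, slc39a4, slc39a8 and slc39a14, after its values were seen. It had 1659, 1643, 1560 and 1491 CPM at Cd 24 ug/L, against 1912, 1786, 1959 and 2994 CPM in control larvae. All 4 cadmium libraries were lower than all 4 control libraries. The log2 fold change was -0.45 ± 0.15 (adjusted p = 0.179), and without the divergent pair tfa fell (-0.24 ± 0.07, adjusted p = 0.0342).

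The tfa values of PCB126 larvae were 2351 to 2747 CPM at 0.4 nM and 2206 to 2701 CPM at 0.8 nM, above control replicates 1 to 3 and below control replicate 4. Log2 fold changes were 0.22 ± 0.15 at 0.4 nM (adjusted p = 0.579) and 0.20 ± 0.15 at 0.8 nM (adjusted p = 0.499). Once that pair was left out tfa rose at both doses, by 0.42 and 0.40 on the log2 scale (adjusted p = 0.000329 and 0.000274). Set directly against PCB126 0.8 nM, Cd 24 ug/L larvae had less tfa, which fell by 0.65 ± 0.15 on the log2 scale, 1.57-fold (adjusted p = 0.0150), with no overlap between the 4 libraries of each. That call was lost in 3 of the 8 fits that left out 1 library, those without Cd 24 ug/L replicate 4 or PCB126 0.8 nM replicates 1 or 4, with adjusted p up to 0.0617.

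The liver is the usual source of transferrin. Summed CPM of 8 hepatocyte markers was 6476 to 6908 at Cd 24 ug/L and 8383 to 10462 at PCB126 0.8 nM, against 6623 to 7391 in control replicates 1 to 3 and 18957 in replicate 4. Most of this sum came from apoa1b and apoa2, with 1753439 and 1118137 counts over the 28 libraries, against 14110 for ttr. At Cd 24 ug/L against PCB126 0.8 nM, 1 of these 8 markers, cp, was called lower and 0 higher, against 1.74% of all genes called. Without the divergent pair 4 were called lower there (apoa1b, apoa2, serpina1 and cp) and 0 higher, against 6.57%. The 8 markers did not all move together in the PCB126 trend. Without the divergent pair 4 rose and 1, ttr, fell in it, against 6.28% of all genes called. Summed CPM of 7 erythroid markers was 564 to 632 at Cd 24 ug/L and 761 to 1060 at PCB126 0.8 nM, against 646 to 795 in control replicates 1 to 3 and 1785 in replicate 4. The erythroid marker alas2 had 1 count and the ionocyte marker atp6v1aa had 2 counts in all 28 libraries together. The part of the hepatocyte and erythroid markers in the tfa result was not tested. Summed CPM of 8 ionocyte markers was 755 to 787 at Cd 24 ug/L, against 678 to 698 in control replicates 1 to 3 and 649 in replicate 4. That of 6 macrophage markers was 24.8 to 26.7 at Cd 24 ug/L, against 18.7 to 21.2 in control replicates 1 to 3 and 13.8 in replicate 4. That of 8 enterocyte markers was 1986 to 2258 at Cd 24 ug/L. It was 1638 to 1724 in control replicates 1 to 3 and 3266 in replicate 4. The ionocyte, macrophage and enterocyte sums lay above control replicates 1 to 3, as did slc30a1a and slc40a1. The part of these sums there was not tested. Sums of 6 keratinocyte and 8 endocrine islet markers lay below those controls, at 3607 to 4446 and 273 to 290. With all libraries edgeR called 0 of 6 macrophage and 0 of 8 enterocyte markers there, against 0.922% of all genes. Without the divergent pair it called 0 and 3, all higher, against 5.08%. Most of the ionocyte sum came from atp1a1a.1, with 256861 counts over the 28 libraries, against 16622 for slc12a10.2. At PCB126 0.8 nM the ionocyte sum was 699 to 742, also above the control. Yet of 7 ionocyte markers tested at that dose, 0 were called higher and 1, trpv6, lower, against 3.49% of all genes called. Without the divergent pair trpv6 and ca15a were called lower and 0 higher, against 8.73%. At the same dose slc40a1 averaged 101 CPM, against 105 CPM in control larvae. Its values there were 98.4 to 104 CPM, against 109 to 116 CPM in control replicates 1 to 3 and 83.6 CPM in replicate 4. The part of the ionocyte markers was not tested.

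hamp (ENSDARG00000102175; chromosome 16, 50289916 to 50292583, plus strand) encodes hepcidin, the hormone that limits iron export. It had 0.201, 0.149, 0.211 and 0.114 CPM at PCB126 0.4 nM, from 3, 2, 4 and 2 counts, against 0.416, 1.15, 2.99 and 3.10 CPM in control larvae, from 7, 19, 50 and 34 counts. Every library at 0.4 nM was below every control library. hamp fell by 3.41 ± 0.74 on the log2 scale (95% interval -4.96 to -1.87, adjusted p = 0.0168), and it was the single member of 30 called there, against 1% of all genes. Without the divergent pair hamp and tfa were called, against 3.57% of all genes. The call was lost in 6 of the 8 fits that left out 1 library, those without control replicates 3 or 4 or any single replicate at 0.4 nM, with adjusted p up to 0.0782, and hamp was too low to be tested when only those 2 groups were fitted. Summed CPM of the hepatocyte markers, which do not include hamp, was 8195 to 8919 at 0.4 nM, above control replicates 1 to 3, and its part was not tested.

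The neighbouring doses did not show the same separation in hamp. Larvae at 0.08 nM had 0.492 to 2.05 CPM and larvae at 0.8 nM had 0.234, 1.29, 1.57 and 0.212 CPM, both overlapping the control. Their log2 fold changes were -0.66 ± 0.60 (adjusted p = 0.760) and -1.16 ± 0.61 (adjusted p = 0.332), and the trend over the PCB126 doses did not pass (adjusted p = 0.435). Cadmium larvae ranged from 0.669 to 3.65 CPM. The values at 0.4 nM were thus the lowest of the series, and 2 of the 4 libraries at 0.8 nM came close to them.

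**Figure D4:**
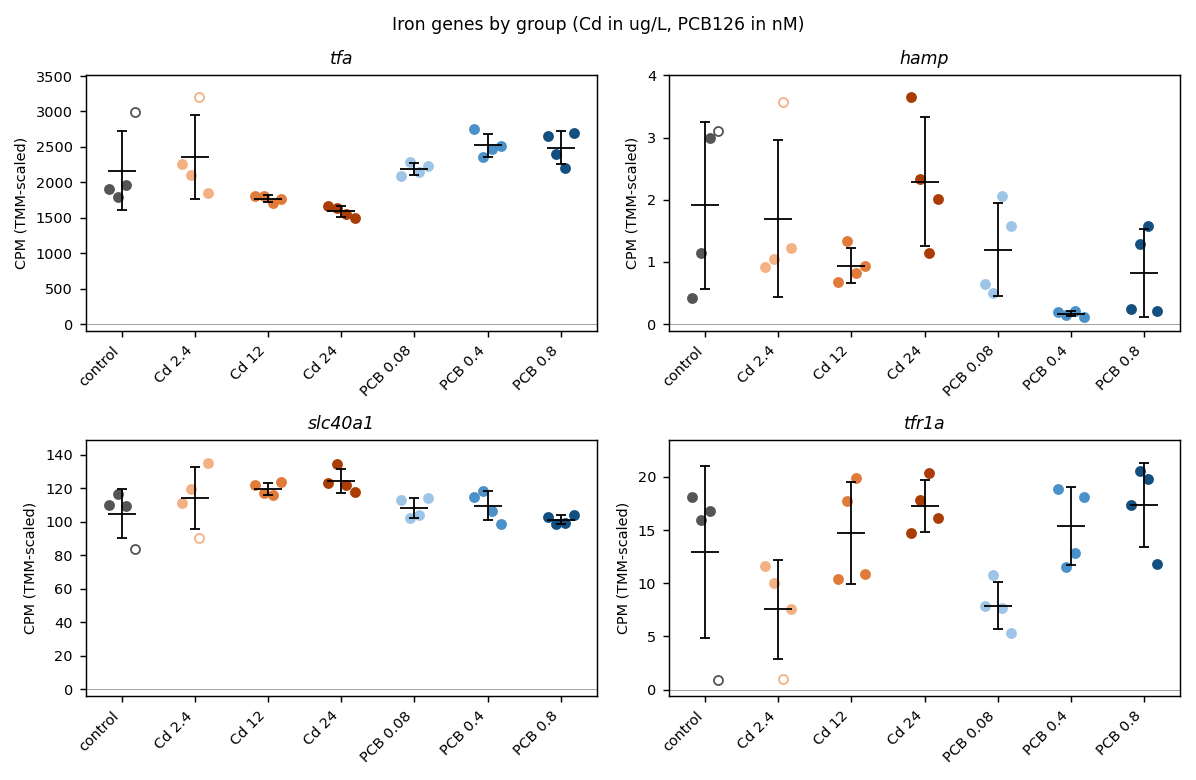
TMM-scaled CPM of tfa, hamp, slc40a1 and tfr1a in each of the 28 libraries (points, 4 per group), with the group mean and SD as black bars; open points are the divergent pair. hamp lies at 0.114 to 0.211 CPM in the 4 libraries at PCB126 0.4 nM, and tfr1a at 0.913 and 1.02 CPM in the divergent pair.

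No member was called at PCB126 0.08 or 0.8 nM against control with all libraries, while edgeR called 0.386% and 3.49% of all genes. At an unadjusted p below 0.05 there were 5 members at each, or 16.7% of the 30, against 8.95% and 17.5% of all genes, and DESeq2 called 1 at each, slc39a8 lower at 0.08 nM and slc30a10 higher at 0.8 nM. Without the divergent pair edgeR called 4 members at 0.08 nM, with tfa higher and mtf1, slc39a8 and tfr1a lower, against 7.83% of all genes. At 0.8 nM it then called 2, slc30a10 and tfa, both higher, against 8.73% of all genes.

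Separation of all 4 libraries from all 4 controls was found for 2 members higher and 3 lower at PCB126 0.4 nM, against 3.51% and 2.93% of all genes. The higher ones were slc30a9 and slc39a9, and the lower ones hamp, slc30a6 and slc39a14 (ZIP14). At 0.08 nM it was 0 higher and 2 lower, slc30a2 and slc39a8, against 3.35% and 1.8% of all genes, and at 0.8 nM 0 in either direction, against 5.48% and 4.49%. Leaving out the divergent pair made these numbers 4 higher and 4 lower at 0.4 nM, against 8.51% and 8.29% of all genes, with slc30a1a and tfa added to the higher ones and slc39a13 to the lower ones. At 0.08 nM they became 2 higher (slc30a1a and tfa) and 4 lower (with mtf1 and tfr1a added), against 10.5% and 10.1%. At 0.8 nM they became 2 higher (slc30a10 and tfa) and 2 lower (slc39a13 and slc40a1), against 10.1% and 8.69%. slc30a6, whose protein works with that of slc30a5 in the early secretory pathway, was below the control mean in every exposed group. Its log2 fold changes lay between -0.27 and -0.62 with all libraries and between -0.09 and -0.21 without the divergent pair, none past the threshold. At PCB126 0.4 nM slc30a6 had 12.7 to 15.2 CPM, against 15.5 to 16.9 CPM in control replicates 1 to 3 and 39.4 CPM in replicate 4. At Cd 24 ug/L the log2 fold change was -0.54 ± 0.25 (adjusted p = 0.380), and -0.09 without the pair.

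Values of slc11a2 and slc39a14, whose proteins can carry cadmium, overlapped the control at every cadmium dose. slc11a2 had 51.3 to 53.0 CPM at Cd 24 ug/L and 46.0 to 88.9 CPM in control larvae. slc39a14 had 2.29 to 3.45 CPM at Cd 24 ug/L and 2.65 to 3.51 CPM in control larvae. slc39a8, a ZIP gene like slc39a14, was below the control without overlap at Cd 24 ug/L, as given above. At Cd 12 ug/L slc39a8 had 2.30, 3.27, 2.03 and 2.59 CPM, and only the 3.27 CPM reached the lowest control value. That log2 fold change was -0.59 ± 0.23 (adjusted p = 0.525, and 0.273 without the divergent pair). slc39a4, the ZIP4 importer gene of the intestine, had 1.89 to 4.73 CPM at Cd 24 ug/L, 1.71 to 3.12 CPM at PCB126 0.8 nM and 2.17 to 5.57 CPM in control larvae.

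Within PCB126, 2 members were called at 0.8 nM against 0.08 nM, both higher, where edgeR called 1.02% of all genes; without the divergent pair 4 were called, against 11%. Values did not overlap for 6 members that were higher and 1 that was lower, against 6.85% and 6.95% of all genes. slc39a8 had 5.31, 3.81, 4.10 and 4.86 CPM at 0.8 nM, against 1.65, 2.25, 2.05 and 2.06 CPM at 0.08 nM, with no overlap. It rose by 1.17 ± 0.24 on the log2 scale, 2.25-fold (adjusted p = 0.00999), and the call was lost in 1 of the 8 fits that left out 1 library (adjusted p = 0.0562 without PCB126 0.08 nM replicate 1). Control larvae had 3.27 to 4.61 CPM, overlapping 0.8 nM and above all 4 libraries at 0.08 nM, so the values at the lowest dose lay apart from the control (log2 fold change -0.95 ± 0.24, adjusted p = 0.0971, and 0.0111 without the divergent pair).

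slc30a10, the ZnT10 gene, whose human protein exports manganese, had 13.3, 12.4, 16.6 and 14.9 CPM at 0.8 nM, against 8.12, 8.36, 10.3 and 9.12 CPM at 0.08 nM. The groups did not overlap, and slc30a10 rose by 0.67 ± 0.15 on the log2 scale (adjusted p = 0.0184), a call lost in 5 of the 8 fits that left out 1 library (without replicates 1, 2 or 4 at 0.08 nM, or 3 or 4 at 0.8 nM). Control larvae had 8.26, 8.93, 11.8 and 14.1 CPM, and the log2 fold change at 0.8 nM against control was 0.42 ± 0.15 (adjusted p = 0.128, and 0.00654 without the divergent pair). The PCB126 trend of slc30a10 was 0.65 ± 0.19 log2 units per nM (adjusted p = 0.0863). It passed without control replicate 4 (0.79, adjusted p = 0.00244) and with DESeq2 (adjusted p = 0.0261).

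The receptor genes and mtf1 also separated these doses without passing the threshold with all 28 libraries. tfr1a, a transferrin receptor gene that in zebrafish serves haemoglobin-making cells, had 17.3, 20.6, 19.8 and 11.8 CPM at 0.8 nM, against 7.84, 10.8, 7.70 and 5.28 CPM at 0.08 nM. Its log2 difference was 1.14 ± 0.51 (adjusted p = 0.441, and 0.00199 without the divergent pair). That of mtf1 was 1.34 ± 0.46 (adjusted p = 0.230, and 0.00832 without the pair). Neither of these doses holds a library of the pair. It entered these tests through the spread, scaling and filter shared over all 28 libraries. The libraries at 0.08 nM also differed in the ribosomal protein share, 6.38% to 6.57% of counts. It was 5.62% to 6.32% at 0.8 nM and 6.10% to 6.14% in control replicates 1 to 3. A share above those controls was not particular to PCB126 0.08 nM. Cd 2.4 ug/L replicates 1, 2 and 4 had 6.51%, 6.34% and 6.39%. The range was 5.83% to 6.37% at Cd 12 ug/L, 5.78% to 6.08% at Cd 24 ug/L and 5.81% to 6.04% at PCB126 0.4 nM. The part of this share in the differences between 0.8 and 0.08 nM was not tested.

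slc30a8, the ZnT8 gene of insulin granules, had 2.97, 2.45, 3.21 and 4.09 CPM at PCB126 0.8 nM, against 2.56, 1.99, 1.38 and 1.00 CPM in control larvae. The groups overlapped by 1 library, and the trend over the PCB126 doses was 1.18 ± 0.33 log2 units per nM (adjusted p = 0.0757). It passed without control replicate 1 (1.38, adjusted p = 0.0379) and with DESeq2 (adjusted p = 0.0237), and did not pass without the divergent pair (adjusted p = 0.0558). Summed CPM of 8 endocrine islet markers was 274 to 283 at PCB126 0.8 nM, and its part was not tested. It was 291 to 303 in control replicates 1 to 3 and 408 in the divergent replicate 4. Most of that sum came from neurod1, with 69890 counts over the 28 libraries, against 694 for ins. Of these 8 markers 1, isl1, was called lower at PCB126 0.8 nM against control and 0 higher, against 3.49% of all genes called. In the PCB126 trend 0 of them were called, against 2.27%. Without the divergent pair isl1 and sst1.1 were called lower in that trend and 0 higher, against 6.28%. The remaining comparisons within compounds gave no call: 0 members at Cd 24 against 2.4 ug/L, where 0.52% of all genes were called, and 0 in the cadmium and PCB126 trends, where 0.344% and 2.27% were called. At an unadjusted p below 0.05 there were 5, 4 and 4 members in these tests, which is 16.7%, 13.3% and 13.8% of those tested, against 16.2%, 13.2% and 15.2% of all genes. DESeq2 called slc30a1b and tfa between the cadmium doses, tfa in the cadmium trend, and slc30a8 and slc30a10 in the PCB126 trend. Between the compounds, at Cd 24 ug/L against PCB126 0.8 nM, tfa was the single call, against 1.74% of all genes. An unadjusted p below 0.05 was reached in that comparison by 7 members, or 23.3% of the 30, against 8.51% of all genes. Without the divergent pair these numbers were 9 members, or 30%, against 18.9%. Leaving out the pair, 5 members were called there, against 6.57%, with mt2, slc30a1a and slc40a1 higher and slc39a8 and tfa lower. With all libraries 4 members were higher and 4 lower without overlap, against 5.56% and 5.59% of all genes. At Cd 24 against 2.4 ug/L these numbers were 3 and 1, against 5.54% and 6.01%, and 4 and 3 without the divergent pair, against 8.28% and 8.75%. Leaving out the pair, 3 members were called at Cd 24 against 2.4 ug/L (slc30a1a, slc30a1b and tfa), 2 in the cadmium trend (slc30a1a and tfa) and 2 in the PCB126 trend (slc30a10 and tfa), against 3.79%, 5.29% and 6.28% of all genes.

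Reads of 3 members were split between the gene on its chromosome and an unnamed locus on an alternate contig of that chromosome. That locus lies at overlapping positions on the same strand, and the deposited annotation describes it as the same protein, so it is called a copy here. The copy held 88.4% of the summed counts of tfr1b, the other transferrin receptor gene, 82.2% of those of slc39a1 (ZIP1) and 27.8% of those of slc30a7 (ZnT7, of the Golgi). The share at the copy ranged from 84.2% to 94.2% between libraries for tfr1b, 67.3% to 100% for slc39a1 and 9.82% to 64.3% for slc30a7. Levels of these genes on the chromosome alone are therefore uncertain. With the copies summed, tfr1b had 74.2, 84.4, 73.0 and 81.6 CPM at PCB126 0.8 nM, against 66.8, 56.8, 65.9 and 34.3 CPM in control larvae. The groups did not overlap, and the log2 fold change was 0.48 ± 0.18 (adjusted p = 0.154). For slc39a1 at that dose the log2 fold change was -0.53 on the chromosome and 0.22 with the copies summed, neither past the threshold. slc30a7 at PCB126 0.4 nM, for example, had 4.76, 3.36, 5.38 and 14.2 CPM on the chromosome and 9.39, 9.41, 8.65 and 15.7 CPM with both copies summed.

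**Figure D5:**
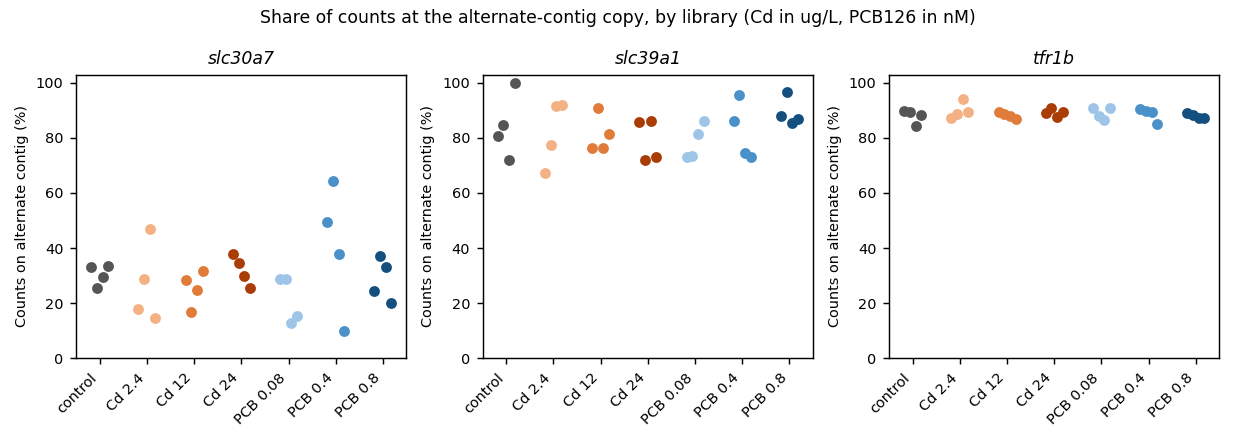
Share of counts (percent) at the alternate-contig copy of slc30a7, slc39a1 and tfr1b in each of the 28 libraries, by group. For slc30a7 it ranges from 9.82% to 64.3%, both at PCB126 0.4 nM.

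The other genes of the same pathways came from lists chosen with earlier results of these data known. Of 32 further iron genes tested, edgeR called 0 against control at Cd 2.4, 12 or 24 ug/L, or at PCB126 0.08 or 0.4 nM. At an unadjusted p below 0.05 there were 3, 1, 0, 0 and 2 of the 32, against 5.43%, 9.30%, 12.8%, 8.95% and 11.1% of all genes. DESeq2 called none of the 32 at these doses except cp at PCB126 0.4 nM. At PCB126 0.8 nM, 2 rose, against 3.49% of all genes: cp, the plasma ferroxidase ceruloplasmin, by 0.57 ± 0.11, and steap4, a metalloreductase gene, by 0.54 ± 0.15 on the log2 scale. At Cd 24 ug/L against PCB126 0.8 nM, 3 fell, against 1.74% of all genes called: alas1, an enzyme gene of haem synthesis (by 0.97), cp (by 0.67) and steap4 (by 0.58). In the PCB126 trend, cp and tfr2, a transferrin receptor gene of the liver, rose and slc25a39, a mitochondrial carrier gene, fell. Of all genes, 2.27% were called in that trend. Fitted without the divergent pair, 4 iron genes rose and 1 fell at PCB126 0.08 nM, 2 rose at 0.4 nM and 6 rose at 0.8 nM, against 7.83%, 3.57% and 8.73% of all genes called. The single call at Cd 24 ug/L was then hmox1a, the haem oxygenase gene, higher by 0.55 ± 0.12, against 5.08% of all genes. hmox1a was then also higher at PCB126 0.08 nM (0.42) and 0.8 nM (0.45), and 0 iron genes were called at the 2 lower cadmium doses. cp is also among the hepatocyte markers.

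None of 10 copper genes was called by edgeR in any of the 11 tests with all libraries. At an unadjusted p below 0.05 there were 0 to 3 per test, against 5.43% to 17.5% of all genes. DESeq2 called 1, atp7b in the PCB126 trend. In the fit without the pair 2 copper genes rose at PCB126 0.4 nM and 3 at 0.8 nM, against 3.57% and 8.73% of all genes called, among them atox1, a copper chaperone gene (0.31 and 0.60), and none at the other 4 doses. Of 14 other genes linked to cadmium or MTF1, slc20a1b, a phosphate transporter gene, rose at Cd 24 ug/L (0.43 ± 0.10, adjusted p = 0.0247) and 13 were not called, against 0.922% of all genes called. Without the pair 5 rose there, against 5.08%. At PCB126 0.8 nM, abcc1, abcc2 and txnrd3 rose and trpv6, an epithelial calcium channel gene, fell, which is 4 of 14 against 3.49% of all genes, and 8 without the pair against 8.73%. abcc2, an export pump gene, rose by 0.61 ± 0.07 there (adjusted p = 6.83e-06). hsp70l, a heat-shock gene, was higher at Cd 24 ug/L than at PCB126 0.8 nM, by 1.09 ± 0.27 on the log2 scale (adjusted p = 0.0328).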

How the data were processed

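Whole larvae were measured by poly(A) RNA sequencing. The deposited table gives raw read counts per gene, made with HISAT2 2.0.5 and featureCounts 1.5.0-p3 on GRCz11, per the submitters' processing notes. The authors' second table gives TPM, which were recomputed from the counts and the table's gene lengths to within a relative difference of 1.4e-14. Whether counting used strand is not given in the sources used here. Totals ranged from 11893345 to 20770004 counts; counting error limits genes with few counts.

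Genes were filtered by group (filterByExpr), leaving 25393, scaled by TMM and fitted in edgeR 4.0.16 (R 4.3.3) with 1 mean per group over all 28 libraries (21 residual degrees of freedom). Quasi-likelihood tests were adjusted over all genes by Benjamini-Hochberg at 0.05. Dose trends used the control and 3 doses. The SE of a log2 fold change was back-calculated, as its absolute value divided by the square root of the test's F statistic. The 95% intervals use this SE and the t distribution on the residual degrees of freedom, so they need not match the test's p-value exactly. The code was tested on simulated data. The members and lists were chosen with earlier results of these data known. The plots of CPM by group show every library for mt2, mtf1, slc30a1a, slc30a1b, tfa, hamp, slc40a1 and tfr1a. The text gives the values of these and other members for selected groups only, some of them as ranges. Alternatives were DESeq2 1.42.0, its size factors, other filters, only the groups compared, a replicate block and leaving out libraries. Promoter and protein sequences were not analysed here.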

Additional observations from a re-analysis of the deposited data

Results flagged for a closer look

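In groups of 4 libraries, a value far from the other 3 was found in 5 of 70 member and group combinations checked, where chance flags about 1 in 20. Of these, 3 were in control replicate 4: slc30a1a had 52.5 CPM, tfa had 2994 CPM and tfr1a had 0.913 CPM. hamp had 3.58 CPM in Cd 2.4 ug/L replicate 3, the other divergent library, and slc39a8 had 7.65 CPM in PCB126 0.4 nM replicate 1.

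The effect of Cd 24 ug/L on tfa differed from that of PCB126 0.8 nM by -0.65 on the log2 scale, tested directly between those groups.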

How the results depend on the processing

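Without the divergent pair, the members called numbered 2 at Cd 24 ug/L, 4 at PCB126 0.08 nM, 2 at 0.4 nM and 2 at 0.8 nM against control, 3 at Cd 24 against 2.4 ug/L, 4 at PCB126 0.8 against 0.08 nM, 5 at Cd 24 ug/L against PCB126 0.8 nM, and 2 in each trend. DESeq2 called 1 at PCB126 0.08 nM and 1 at 0.8 nM against control, 2 at Cd 24 against 2.4 ug/L, 1 in the cadmium trend and 2 in the PCB126 trend. Fitting only the groups compared called 0 at PCB126 0.4 nM against control, 6 at PCB126 0.8 against 0.08 nM and 3 at Cd 24 ug/L against PCB126 0.8 nM. The share of all genes called is not given for these fits, for DESeq2 here and above, or for fits without 1 library. Their counts therefore do not show whether members were called more often than other genes. Leaving out 1 library gave 0 to 1 calls at PCB126 0.4 nM and 0 to 1 at 0.8 nM against control, 0 to 2 at Cd 24 against 2.4 ug/L, 0 to 2 at PCB126 0.8 against 0.08 nM, 0 to 1 at Cd 24 ug/L against PCB126 0.8 nM and 0 to 2 in the PCB126 trend, and 0 in the others. The main fit estimates the spread of a gene over all 28 libraries, so the divergent pair also enters comparisons of groups that do not hold it. The cause of these changes in number was not tested. The replicate block, DESeq2 size factors, no filter, a mean of at least 10 counts and summed alternate copies changed none of the 11 counts. In no comparison did every library, as its deviation from the group mean, correlate best with the library of the same number. At PCB126 0.8 nM against control the same-numbered correlations were 0.0046 to 0.25, with a mean of 0.12, against -0.037 for other numbers. With the replicate block 1 member was called at PCB126 0.4 nM and 0 at Cd 24 ug/L against control.

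Among the gene and comparison pairs selected for this check, which were not all of them, directions reversed in 3, none past the threshold. mt2 at Cd 12 ug/L was -0.058 without control replicate 1, within a range of -0.058 to 0.48 over single libraries left out. mtf1 at Cd 24 ug/L was -0.22 without the divergent pair and lay between -0.22 and 0.26 over single libraries left out. slc39a1 at PCB126 0.8 nM was 0.22 with the copies summed, 0.0041 without control replicate 3, and as low as -0.88 over single libraries left out. Outside the selected pairs other members changed direction too. At Cd 12 ug/L against control, tfr1a was 0.17 with all libraries and -0.20 without the divergent pair, and slc11a2 was -0.16 and 0.099. Genes with few counts, such as hamp and slc25a37, were limited by depth.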
